A study of Mus musculus with 25 samples.

Results

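The genes described here are 39 genes of the autophagy machinery and the receptors that bring cargo to it, measured by bulk RNA sequencing in mouse retina. Members were taken by gene symbol from a fixed list with no cut on their measured values, though earlier results of these data were known. All 39 were found among the 18440 genes that the expression tables of every group list. Autophagy encloses cytoplasm, damaged organelles or stretches of endoplasmic reticulum (ER) in a double membrane that fuses with the lysosome. The ULK1 kinase complex and the class III PI3-kinase complex start the membrane, the WIPI, ATG2 and ATG9 proteins feed it with lipid, and an enzyme cascade attaches LC3 and GABARAP proteins to it. Cargo receptors bind those proteins, and ER-phagy receptors tie them to the ER. In photoreceptors, autophagy is known to help clear misfolded proteins, and the transcription factors TFEB and TFE3 switch on autophagy and lysosome genes.

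All groups were retinas of wild-type C57BL/6J mice injected into the vitreous of both eyes at postnatal day 30. Tunicamycin, an inhibitor of N-linked glycosylation that causes ER stress, served as the positive control. Ceapin-A7 is described by the submitters as an inhibitor of ATF6, an ER membrane protein that switches on chaperone genes, and AA147 as an activator of it. Each was given at 10 µM in 1 µL of saline with 0.05 to 0.1% DMSO, and vehicle eyes received the same saline. The treatment label of the vehicle libraries reads PBS. Every group had 5 libraries. Tunicamycin and Ceapin-A7 were compared with vehicle set 2 and AA147 with vehicle set 1, because only those tables list the same genes. The compound columns are marked 24 h, whereas no vehicle column gives a time, so compound and collection time cannot be told apart. Separate animals behind the 5 libraries are not stated in the labels, and p-values then measure only the spread between these samples, which may be technical.

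Retinal identity was clear in the marker genes fixed for it: the summed level of 6 rod markers was 13143 to 22405 FPKM over all libraries. FPKM scales fragments to transcript length and to the mapped total of the library. The depth behind it was estimated at 15.2 to 25.02 M fragments per library (M, mega), and 12582 to 12870 genes reached 1 FPKM. Some libraries stood apart. The 6 lens markers summed to 2.07 to 9903 FPKM in tunicamycin libraries, 53.7 to 6693 in Ceapin-A7 libraries and 4.61 to 3745 in vehicle set 2. Library 1 was the highest in each of these groups, and tunicamycin libraries 2 and 5 were at 4420 and 4061. The 5 endothelial markers summed to 14.9 to 22.1 FPKM in tunicamycin libraries, against 36.7 to 51.4 in vehicle set 2, and the 4 pericyte markers to 8.29 to 10.8 against 22.7 to 27.2. The endothelial markers did not all go the same way: Ly6c1 averaged 3.30 FPKM in tunicamycin libraries and 20.1 in vehicle set 2 and Cldn5 5.82 and 15.9, whereas Cdh5 was at 2.82 to 3.98 against 1.87 to 2.46 and Pecam1 averaged 4.33 and 4.70. The 6 pigment epithelium markers summed to 10.3 to 39.7 FPKM in tunicamycin libraries, against 97.6 to 210.5 in vehicle set 2, and to 43.1 to 150.1 in Ceapin-A7 libraries. None of the markers in these 5 lists was at 0 throughout a group. The 4 neutrophil markers summed to at most 3.22 FPKM in a tunicamycin library and 1.69 in a vehicle set 2 library. Ddx3y, a Y-linked gene, was under 1 FPKM in 0 of 5 tunicamycin libraries, 2 of 5 Ceapin-A7 libraries and 4 of 5 of vehicle set 2, and in 2 of 5 AA147 libraries and 0 of 5 of vehicle set 1. In whole tissue, fewer cells of a type and less RNA per cell cannot be told apart.

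The tunicamycin label was checked on ER stress genes. Hspa5, which encodes the ER chaperone BiP, was at 1513, 495, 229, 581 and 427 FPKM in tunicamycin libraries 1 to 5, against 110.2, 109.9, 106, 138 and 162 in vehicle set 2. Its log2 difference, on the log2(FPKM + 1) scale used throughout, was 2.10 ± 0.33 (SE, limma adjusted p = 0.00311). Every tunicamycin library was above every vehicle library, with library 1 highest and library 3 lowest. Derl3, of ER-associated degradation, averaged 30.2 ± 25.9 FPKM in tunicamycin libraries and 0.952 ± 0.303 in vehicle set 2 (SD, n = 5 each). The stress-induced transcription regulators Ddit3 and Trib3 and the glutathione-degrading enzyme Chac1 rose as well, by 1.32 ± 0.33, 1.92 ± 0.37 and 2.15 ± 0.55 log2 (limma adjusted p = 0.0433, 0.0130 and 0.0491). Calls of Ddit3 and Chac1 held in 2 of 10 fits that left out a library. Libraries 4 and 5 of vehicle set 2 were themselves higher than its libraries 1 to 3 in Hspa5, Ddit3 and Chac1. Ddit3 was at 73.0 and 87.3 FPKM, against 34.7 to 46.4 in libraries 1 to 3. Chac1 was at 19.7 and 13.9, against 3.54 to 5.09. The same 2 vehicle libraries had rod marker sums of 14098 and 13143 FPKM, against 17923 to 19972 in libraries 1 to 3. Their Müller glia marker sums were 467 and 615, against 890 to 1330. The reactive glia marker Vim was at 327 and 312, against 103 to 189. The 6 reactive glia markers together summed to 633 and 451 FPKM in libraries 4 and 5, against 204 to 459, so library 5 did not stand apart there. Beyond fits without both libraries, their part in the differences from vehicle set 2 was not tested.

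The proximal promoters of the called autophagy genes and of the ER stress genes Hspa5 and Derl3 are shown to compare the regulatory letters they hold. Sequences are from RefSeq on build GRCm38.p6, while the submitters' processing notes name GRCm39, and each covers the 250 bases before the annotated start, 5′ to 3′ on the gene's strand. Capitals mark matches to any of the motifs searched. The Sqstm1 window lies at chr11:50210821-50211070 (minus strand), Calcoco1 at chr15:102722179-102722428 (minus), Hspa5 at chr2:34771840-34772089 (plus) and Derl3 at chr10:75893148-75893397 (plus).
Sqstm1: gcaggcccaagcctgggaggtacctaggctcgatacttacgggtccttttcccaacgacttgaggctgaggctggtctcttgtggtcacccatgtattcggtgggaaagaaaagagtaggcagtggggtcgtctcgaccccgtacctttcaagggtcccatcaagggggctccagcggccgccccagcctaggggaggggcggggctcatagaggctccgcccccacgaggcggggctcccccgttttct
Calcoco1: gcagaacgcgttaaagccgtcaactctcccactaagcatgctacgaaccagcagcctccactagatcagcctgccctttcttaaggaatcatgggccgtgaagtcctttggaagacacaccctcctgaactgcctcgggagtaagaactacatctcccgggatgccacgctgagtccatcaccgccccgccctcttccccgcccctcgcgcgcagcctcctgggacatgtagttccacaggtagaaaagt
Hspa5: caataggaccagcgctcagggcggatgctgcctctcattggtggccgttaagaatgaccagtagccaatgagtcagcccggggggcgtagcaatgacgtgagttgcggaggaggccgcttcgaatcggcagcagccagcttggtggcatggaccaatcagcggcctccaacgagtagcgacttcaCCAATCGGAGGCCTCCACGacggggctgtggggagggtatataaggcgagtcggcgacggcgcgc
Derl3: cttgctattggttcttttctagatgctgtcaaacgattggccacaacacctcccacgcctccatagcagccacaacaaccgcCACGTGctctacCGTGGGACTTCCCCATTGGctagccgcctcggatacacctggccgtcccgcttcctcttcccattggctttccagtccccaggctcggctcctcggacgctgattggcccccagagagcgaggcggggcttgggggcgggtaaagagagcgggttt

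Motifs were searched on both strands in the same window of 32851 RefSeq promoters, 43 of which belong to 33 of the members. The ER stress element (ERSE: CCAAT, 9 bases, CCACG) was in 0 members' promoters and in 0.113% of all promoters, among them Hspa5 at bases -65 to -47 and Derl3 at -156 to -138, where it lies on the opposite strand. ERSE-II (ATTGG, 1 base, CCACG) was in 0 members and 0.0304% of all. The C/EBP-ATF response element (CARE: TGATGNAAN) was in 0 members and 3.44% of all, and Chac1 held it at -194 to -186. The E-box CACGTG, which TFEB and TFE3 can bind, was in the promoters of 4 members, Atg3, Atg5, Atg7 and Retreg1, against 6.02% of all. An antioxidant response element core (TGACNNNGC) was in 3 members, Atg13, Rtn3 and Ulk2, against 10.2% of all. CCACG can share bases with an E-box, but no matches named here overlapped. Ddit3, Trib3, Ufl1 and Ufsp2 were looked up as well and had no match recorded. Whether each has an entry among these promoters is not given here. A match is a description of letters, and its absence speaks only of this window.

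All 39 members were expressed. Their mean FPKM over the 25 libraries ran from 4.38 for Tfeb to 245 for Rtn3, with a median of 26.8, and 29 of 39 lay above 12.4, the median of the 13117 genes that reached 1 FPKM in 5 libraries. The lowest value of any member in any library was 3.08 FPKM and the highest 287. After Rtn3, an ER-shaping reticulon whose long form is an ER-phagy receptor, came Gabarapl1 at 229, Gabarapl2 at 202 and Sqstm1 at 169 FPKM. Rtn3 values count the whole gene and do not single out the long form.

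Tunicamycin against vehicle set 2 asks how ER stress moved these genes. Calcoco1, a receptor described for ER-phagy in human cells, was the 1 member called, as lower. In all, 0 of 39 passed limma at an adjusted p under 0.05 as higher and 1 as lower. Of 12947 genes tested, 3.00% were called (2.12% higher and 0.888% lower). The log2 difference of Calcoco1 was -0.21. Those of Sqstm1 (0.32, 95% interval 0.10 to 0.54), Atg13 (0.31, 0.13 to 0.50) and Tfeb (-0.26, -0.49 to -0.031) were larger in size but not called. At an unadjusted p under 0.05, 6 members were higher and 2 lower, 8 of 39, where 20.3% of all genes passed. The members' median log2 difference was 0.032, against 0.013 for all genes, and 22 of 39 were above 0. Their differences ran from -0.26 (Tfeb) to 0.32 (Sqstm1). For 29 of 39 members the 95% interval lay within 0.25 log2 of 0, a 1.19-fold change, and the outermost bounds were -0.49 (Tfeb) and 0.54 (Sqstm1). Of all genes called, 274 were higher and 115 lower, a split that was 195 and 167 under median-ratio scaling and 182 and 171 under quantile normalization.

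Tunicamycin was also set against Ceapin-A7, which shares its tables. Sqstm1, which binds ubiquitinated cargo and LC3, was the called member, higher with tunicamycin. In all, 1 of 39 was called higher and 0 lower, where 5.43% of 12947 genes were called (3.83% higher and 1.60% lower). At an unadjusted p under 0.05, 13 members passed, 11 higher and 2 lower, where 25.04% of all genes did. The members' median difference was 0.040, against 0.015 for all genes. Higher and lower calls over all genes numbered 496 and 207, and became 358 and 248 under median-ratio scaling and 346 and 252 under quantile normalization.

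Ceapin-A7 moved no member past the threshold. Against vehicle set 2, limma called 0 of 39 members and 0% of 12947 genes, groups did not overlap for 0 members (0.981% of genes higher and 0.479% lower), and 2 members (Wipi1 and Tfe3, both lower) passed an unadjusted p under 0.05, where 8.50% of all genes did. The median difference was -0.0079, against -9.44e-05 for all genes, and 31 of 39 intervals lay within 0.25 log2 of 0. AA147 likewise moved none. Against vehicle set 1, 0 of 39 members and 0% of 12701 genes were called, groups did not overlap for 0 members (0.457% of genes higher and 0.213% lower), and 1 member, Tfeb, passed an unadjusted p under 0.05, where 3.75% of all genes did. Its members' median was 0.037, against 0.0093 for all genes, and 30 of 39 were above 0, as were 57.2% of all genes. For AA147, 38 of 39 intervals lay within 0.25 log2 of 0 and all 39 within 0.5. Those intervals were the narrowest of the comparisons, with a median half-width of 0.092, against 0.13 for tunicamycin and Ceapin-A7. Other tools were not run on these values, which are not counts. No ER stress gene was called for Ceapin-A7 or AA147 either. Hspa5 differed from vehicle by -0.10 with Ceapin-A7 and -0.15 with AA147 (limma adjusted p = 0.941 and 0.997). Whether either compound acted on ATF6 in these retinas was not tested.

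**Figure D1:**
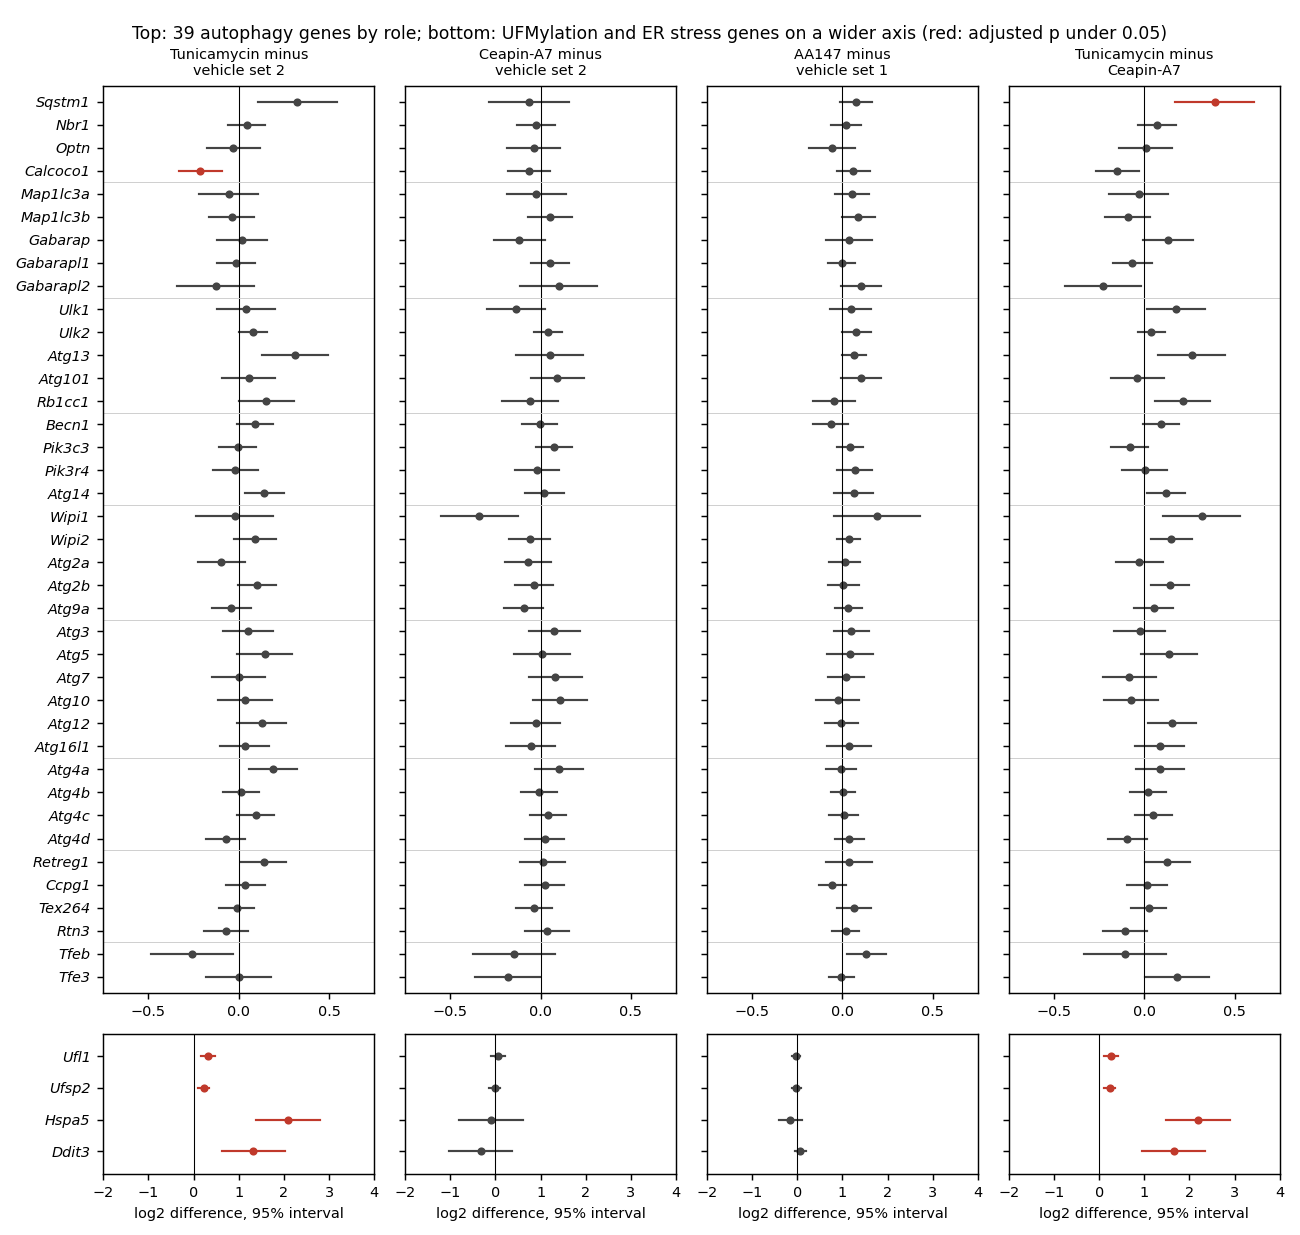
Log2 differences on the log2(FPKM + 1) scale with 95% intervals for the 39 autophagy genes, ordered by role and separated by grey lines, in 4 comparisons of 5 against 5 libraries, with 2 UFMylation genes and 2 ER stress genes on a wider axis below. Red marks limma adjusted p under 0.05: Calcoco1 in tunicamycin against vehicle set 2, Sqstm1 in tunicamycin against Ceapin-A7, and the lower-row genes in both tunicamycin comparisons.

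Among the 4 selective cargo receptors, Sqstm1 (gene ID 18412) had the largest difference. It was at 245, 183, 172, 214 and 179 FPKM in tunicamycin libraries 1 to 5, at 147, 148, 150, 157 and 149.7 in Ceapin-A7 libraries, and at 138, 139, 149, 173 and 195 in vehicle set 2. Every tunicamycin library was above every Ceapin-A7 library, while the tunicamycin and vehicle ranges overlapped because of vehicle libraries 4 and 5. Against Ceapin-A7 the log2 difference was 0.39 ± 0.10 (SE, limma adjusted p = 0.0418), or 1.31-fold, and against vehicle set 2 it was 0.32 ± 0.10 (adjusted p = 0.0973). The call against Ceapin-A7 was lost without any 1 of tunicamycin libraries 1, 2 and 4 or of the 5 Ceapin-A7 libraries (difference 0.31 to 0.44 over all 10 such fits), and without tunicamycin library 1 alone the difference was 0.31. Without libraries 4 and 5 of vehicle set 2 the difference from vehicle was 0.47, with adjusted p = 0.0256. Rod markers summed to 13651 to 16995 FPKM in tunicamycin libraries and 18256 to 19480 in Ceapin-A7 libraries, endothelial markers to 14.9 to 22.1 and 36.6 to 47.8, and pericyte markers to 8.29 to 10.8 and 24.8 to 28.1, and their part in the Sqstm1 difference was not tested.

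Ceapin-A7 alone left Sqstm1 at -0.065 ± 0.10 log2 from vehicle set 2 (adjusted p = 0.873). AA147 libraries had 160, 174, 184, 176 and 177 FPKM, against 167, 170, 161, 167 and 161 in vehicle set 1. The 2 groups overlapped, and the difference of 0.073 ± 0.040 did not pass (adjusted p = 0.997).

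Calcoco1 (gene ID 67488) was at 25.2, 29.3, 28.0, 28.5 and 28.0 FPKM in tunicamycin libraries, at 31.0, 32.9, 30.8, 29.9 and 29.9 in Ceapin-A7 libraries, and at 31.9, 28.9, 32.1, 32.9 and 36.4 in vehicle set 2. All tunicamycin libraries lay below all Ceapin-A7 libraries, and 1 vehicle library lay within the tunicamycin range. Its difference from vehicle was -0.21 ± 0.055 (SE, limma adjusted p = 0.0496), a level 0.863 times that of vehicle, and from Ceapin-A7 -0.15 ± 0.055 (adjusted p = 0.116). The call stood only just past the threshold, and 8 of the 10 fits that left out a library lost it, the exceptions being those without tunicamycin library 3 or vehicle set 2 library 2. Without vehicle libraries 4 and 5 together the difference was -0.15 (adjusted p = 0.153). With the Ddx3y level as a covariate the call did not hold, although the difference was larger, at -0.31 (adjusted p = 0.0512). Nor did that of Sqstm1 against Ceapin-A7, at 0.34 (adjusted p = 0.113). Ddx3y was under 1 FPKM in 0 of 5 tunicamycin libraries and 4 of 5 of vehicle set 2. Ddx3y level and compound therefore largely coincided between these 2 groups, though Ceapin-A7 libraries, with 2 of 5 under 1 FPKM, also entered the fit. The part of each in the Calcoco1 difference was not told apart. Endothelial, pericyte and pigment epithelium marker sums were lower in the same tunicamycin libraries, and their part in the fall of Calcoco1 was not tested. In AA147 libraries Calcoco1 ranged over 41.9 to 48.4 FPKM, against 41.2 to 45.3 in vehicle set 1.

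Nbr1, a receptor related to Sqstm1, was level between each compound and its vehicle set and between tunicamycin and Ceapin-A7. It had 71.9, 68.5, 61.0, 66.7 and 64.9 FPKM in tunicamycin libraries, 60.4, 64.7, 61.6, 65.3 and 64.6 in Ceapin-A7 libraries, and 61.5, 64.6, 63.6, 70.6 and 62.6 in vehicle set 2. AA147 libraries ran from 68.8 to 73.7 FPKM and vehicle set 1 from 65.0 to 72.8. These ranges overlapped in each comparison. Optn, a receptor for damaged mitochondria, differed by -0.031 ± 0.069 with tunicamycin, -0.039 ± 0.069 with Ceapin-A7 and -0.058 ± 0.059 with AA147.

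**Figure D2:**
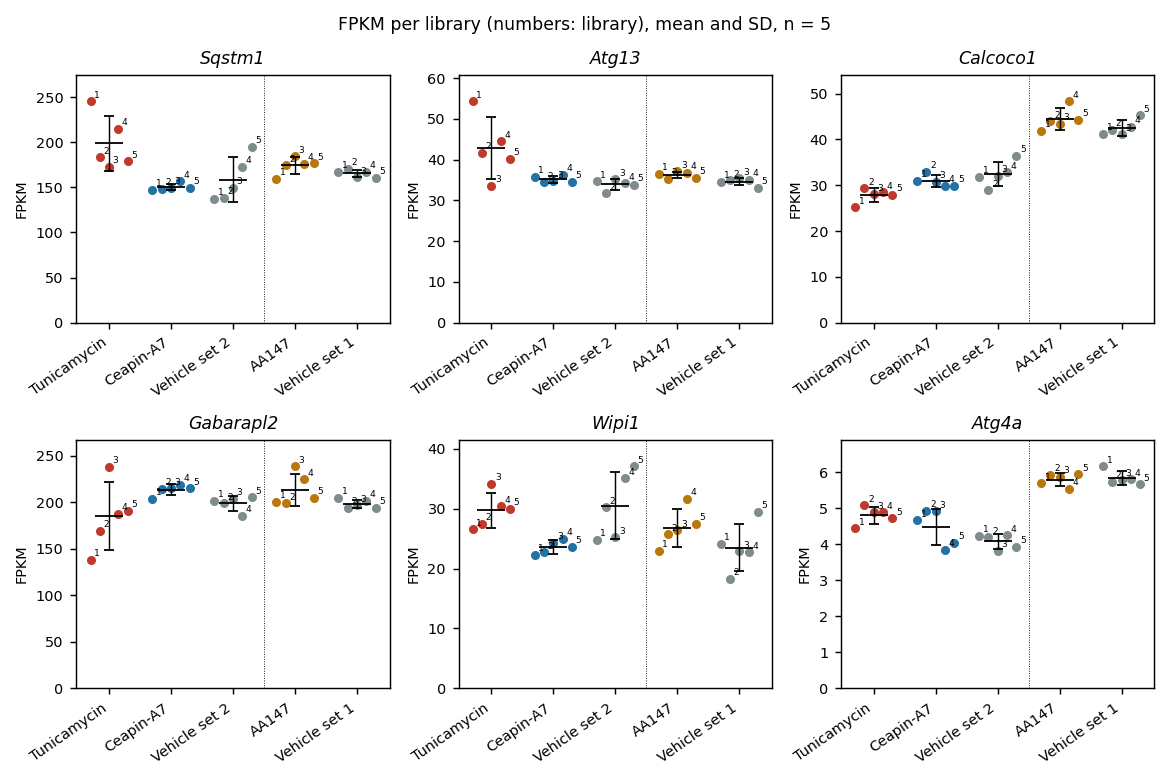
FPKM of 6 autophagy genes in each library (dots, numbered by library) with mean and SD, for tunicamycin, Ceapin-A7 and vehicle set 2 left of the dotted line and AA147 and vehicle set 1 right of it. Tunicamycin library 1 is the highest for Sqstm1 (245) and Atg13 (54.4) and the lowest for Gabarapl2 (138).

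None of the 5 LC3 and GABARAP genes was called in any of the 4 comparisons. These encode the ubiquitin-like proteins that are joined to phosphatidylethanolamine on the growing membrane. Gabarapl1 had 219, 216, 226, 248 and 234 FPKM in tunicamycin libraries, 247, 248, 239.7, 231 and 233 in Ceapin-A7 libraries, and 217, 235, 232, 223 and 249 in vehicle set 2. AA147 libraries had 209, 231, 221, 226 and 224, against 218, 223, 222, 225 and 226 in vehicle set 1. Its groups overlapped throughout, with differences of -0.015 ± 0.050, 0.052 ± 0.050 and -0.0037 ± 0.034 for tunicamycin, Ceapin-A7 and AA147. Gabarapl2 spread more widely with tunicamycin, at 138, 169, 239, 188 and 191 FPKM, against 204, 215, 215, 219 and 215 with Ceapin-A7 and 202, 199, 204, 185 and 205 in vehicle set 2. Libraries 1 and 2 were below and library 3 above the vehicle range, and the difference from vehicle was -0.13 ± 0.100 (limma adjusted p = 0.504). AA147 libraries had 201, 199, 239, 225 and 205 FPKM, against 205, 194, 197, 202 and 194 in vehicle set 1, again overlapping. Map1lc3a, Map1lc3b and Gabarap differed from vehicle by -0.055 to 0.017 with tunicamycin, -0.12 to 0.053 with Ceapin-A7 and 0.037 to 0.089 with AA147.

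The ULK1 complex receives nutrient signals and starts the membrane. Its 5 genes were all above 0 in tunicamycin against vehicle, at 0.040 to 0.31, and none was called. Atg13, the regulatory subunit that mTORC1 phosphorylates, was at 54.4, 41.7, 33.6, 44.5 and 40.1 FPKM in tunicamycin libraries, 35.7, 34.4, 34.7, 36.3 and 34.6 in Ceapin-A7 libraries, and 34.7, 31.7, 35.2, 34.2 and 33.9 in vehicle set 2. Tunicamycin libraries 1, 2, 4 and 5 were above all vehicle libraries and library 3 was within their range. The difference was 0.31 ± 0.086 from vehicle (limma adjusted p = 0.0634) and 0.26 ± 0.086 from Ceapin-A7 (adjusted p = 0.0850), and without tunicamycin library 3 it was 0.39 (adjusted p = 0.00400) and 0.34 (adjusted p = 0.00702). In AA147 libraries Atg13 was at 36.5, 35.2, 37.2, 36.8 and 35.6 FPKM, against 34.6, 34.9, 35.4, 35.1 and 33.1 in vehicle set 1, a difference of 0.065 ± 0.030.

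Ulk1, the kinase itself, was at 23.4, 31.3, 30.2, 28.0 and 29.5 FPKM with tunicamycin, at 24.9, 24.95, 24.6, 25.4 and 25.1 with Ceapin-A7, and at 27.7, 23.8, 25.8, 30.5 and 30.6 in vehicle set 2. Ceapin-A7 libraries were tightly grouped and lay within the vehicle range. AA147 libraries spanned 29.0 to 33.7 FPKM and vehicle set 1 26.7 to 31.4, with overlap. Rb1cc1, the scaffold of the complex, differed by 0.15 ± 0.072 from vehicle and 0.21 ± 0.072 from Ceapin-A7 with tunicamycin (adjusted p = 0.249 and 0.0930), and Ulk2 and Atg101 by 0.079 and 0.054 from vehicle.

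The class III PI3-kinase complex makes the lipid signal PI3P, and none of its 4 genes was called. Becn1, its scaffold, was at 57.2, 56.0, 48.1, 51.3 and 51.3 FPKM in tunicamycin libraries, 49.2, 46.7, 50.7, 49.1 and 50.9 in Ceapin-A7 libraries, and 49.6, 48.1, 51.2, 49.6 and 48.9 in vehicle set 2. AA147 libraries had 56.0, 52.9, 47.6, 51.4 and 49.4, against 53.5, 52.9, 52.5, 57.0 and 53.1 in vehicle set 1. Ranges overlapped in each comparison. Pik3c3, the catalytic subunit, was at 12.9, 12.7, 13.9, 14.1 and 14.2 FPKM with tunicamycin, 14.3, 14.5, 13.4, 14.5 and 15.4 with Ceapin-A7, and 13.9, 13.95, 13.9, 13.9 and 12.5 in vehicle set 2. With AA147 it ran from 15.5 to 16.7 and in vehicle set 1 from 15.03 to 15.9. The kinase Pik3r4 differed by -0.018 ± 0.058 and Atg14, which directs the complex to autophagy, by 0.14 ± 0.051 with tunicamycin against vehicle (adjusted p = 0.891 and 0.131).

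Of the 5 genes that supply lipid to the membrane, none was called. Wipi2, a PI3P reader that recruits the conjugation machinery, was at 35.9, 34.7, 31.6, 35.3 and 33.2 FPKM with tunicamycin, 32.4, 31.4, 29.5, 30.0 and 30.0 with Ceapin-A7, and 29.8, 29.4, 31.8, 34.2 and 35.3 in vehicle set 2. AA147 libraries spanned 34.4 to 35.1 and vehicle set 1 32.7 to 34.9. Atg9a, a membrane protein that moves lipid between leaflets, was at 26.9, 31.2, 29.7, 31.6 and 28.9 FPKM with tunicamycin, 27.9, 27.2, 29.1, 29.2 and 29.5 with Ceapin-A7, and 32.2, 27.5, 31.3, 31.0 and 30.8 in vehicle set 2, and spanned 34.7 to 37.0 with AA147 and 32.9 to 36.3 in vehicle set 1. All these ranges overlapped. Wipi1, a related PI3P reader described here because its groups separated, was at 26.6, 27.5, 34.1, 30.4 and 30.0 FPKM with tunicamycin and 22.3, 22.7, 24.3, 24.97 and 23.7 with Ceapin-A7, against 24.8, 30.2, 25.2, 35.1 and 37.1 in vehicle set 2. Tunicamycin libraries were all above Ceapin-A7 libraries, with vehicle libraries spread over both. The difference between the compounds was 0.32 ± 0.100 (adjusted p = 0.0733), and that of Ceapin-A7 from vehicle -0.34 ± 0.100 (adjusted p = 0.577). Groups did not overlap for 2 members higher (Sqstm1 and Wipi1) and 1 lower (Calcoco1) between tunicamycin and Ceapin-A7, where 6.77% and 2.71% of all genes did so. The lipid-transfer genes Atg2a and Atg2b differed from vehicle by -0.097 and 0.10 with tunicamycin.

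The 6 genes that conjugate LC3 comprise the activating enzyme Atg7, the conjugating enzymes Atg3 and Atg10, and the Atg5, Atg12 and Atg16l1 ligase. None was called. Atg12 was at 41.3, 37.9, 29.9, 36.9 and 36.1 FPKM with tunicamycin, 32.0, 31.6, 32.7, 32.7 and 33.4 with Ceapin-A7, and 31.4, 34.5, 32.4, 33.2 and 34.2 in vehicle set 2. Tunicamycin library 3 was the lowest of all 15 and the other tunicamycin libraries were above all of them, and the difference from vehicle was 0.13 ± 0.063 (limma adjusted p = 0.277), or 0.19 without library 3 (adjusted p = 0.0170). With AA147 it ran from 24.6 to 26.8 and in vehicle set 1 from 23.8 to 27.6. Atg16l1 was at 27.8, 27.3, 27.7, 23.9 and 24.6 FPKM with tunicamycin, 24.9, 24.1, 26.0, 24.0 and 24.4 with Ceapin-A7, and 23.7, 23.8, 24.2, 30.1 and 26.9 in vehicle set 2, and ran from 26.9 to 30.3 with AA147 and 24.7 to 30.9 in vehicle set 1. These groups overlapped. Atg3, Atg5, Atg7 and Atg10 differed from vehicle by -0.0015 to 0.14 with tunicamycin, 0.0068 to 0.11 with Ceapin-A7 and -0.026 to 0.050 with AA147.

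The 4 ATG4 proteases trim LC3 proteins before use and release them afterwards. Atg4b, the main one in mammals, was at 26.3, 28.9, 27.5, 29.0 and 29.0 FPKM with tunicamycin, 27.2, 29.5, 27.9, 27.4 and 26.6 with Ceapin-A7, and 26.0, 28.1, 27.5, 27.4 and 30.7 in vehicle set 2. AA147 libraries ran from 25.7 to 27.3 and vehicle set 1 from 25.4 to 27.2. Atg4d was at 20.9, 21.8, 25.4, 22.7 and 24.0 FPKM with tunicamycin, 24.3, 24.1, 23.8, 26.3 and 24.4 with Ceapin-A7, and 24.1, 23.1, 23.4, 25.03 and 25.2 in vehicle set 2, and from 23.5 to 26.0 with AA147 and 23.7 to 25.7 in vehicle set 1. Neither separated the groups. Atg4a, a low-level member noted after its values were seen, was at 4.44, 5.08, 4.89, 4.88 and 4.72 FPKM with tunicamycin and 4.66, 4.92, 4.91, 3.84 and 4.03 with Ceapin-A7, against 4.23, 4.19, 3.81, 4.25 and 3.92 in vehicle set 2. It was the 1 member whose tunicamycin and vehicle libraries did not overlap, all higher, where 2.81% of genes did so, and for 0 members were all lower (1.22% of genes). Its difference was 0.19 ± 0.062 (adjusted p = 0.101). Atg4c differed by 0.093 ± 0.047.

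None of the 4 genes grouped as ER-phagy receptors was called in any comparison. Calcoco1, also described for ER-phagy, was counted with the cargo receptors. Rtn3 was at 221, 256, 266, 276 and 253 FPKM with tunicamycin, 287, 268, 261, 268 and 283 with Ceapin-A7, and 258, 274, 277, 253 and 274 in vehicle set 2. AA147 libraries had 212, 211, 223, 215 and 223, against 210.1, 205, 224, 219 and 212 in vehicle set 1. Groups overlapped, with differences of -0.072 ± 0.058, 0.035 ± 0.058 and 0.018 ± 0.035 for tunicamycin, Ceapin-A7 and AA147. Ccpg1, a receptor described as induced by ER stress in human cells, was at 57.4, 49.9, 48.0, 56.7 and 48.6 FPKM with tunicamycin, 49.4, 52.4, 51.8, 51.7 and 51.8 with Ceapin-A7, and 48.8, 49.7, 49.2, 52.6 and 53.0 in vehicle set 2. Tunicamycin libraries 1 and 4 were above all vehicle libraries and libraries 3 and 5 below them, and the 95% interval of the difference was -0.074 to 0.15. AA147 libraries ran from 49.7 to 54.1 and vehicle set 1 from 51.3 to 55.2. Retreg1, the sheet-curving receptor, differed by 0.14 ± 0.058 (adjusted p = 0.197) and Tex264 by -0.013 ± 0.046 with tunicamycin against vehicle.

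Of the transcription factors, Tfe3 was at 22.6, 19.3, 16.6, 20.7 and 17.4 FPKM with tunicamycin, 17.5, 16.1, 17.2, 16.8 and 16.6 with Ceapin-A7, and 17.7, 16.9, 18.2, 22 and 21.9 in vehicle set 2. AA147 libraries ran from 17.3 to 18.9 and vehicle set 1 from 17.7 to 18.5. Vehicle libraries 4 and 5 were again above libraries 1 to 3. Tfeb, the lowest member, was at 3.08, 4.04, 3.2, 3.81 and 4.40 FPKM with tunicamycin, 4.01, 4.22, 5.10, 3.65 and 3.41 with Ceapin-A7, and 5.22, 4.38, 3.54, 5.00 and 5.02 in vehicle set 2. Tunicamycin differed from vehicle by -0.26 ± 0.11 with overlapping groups (limma adjusted p = 0.189). AA147 libraries had 4.76, 5.46, 4.96, 5.03 and 4.84 FPKM, against 4.56, 4.28, 4.18, 4.94 and 4.47 in vehicle set 1, a difference of 0.13 ± 0.049 (adjusted p = 0.997). At the lowest estimated depth, 4 FPKM over a 2 kb transcript is 106 fragments.

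Tunicamycin library 1, with the highest Hspa5, was the highest or the lowest of its group for 31 of 39 members, 15 highest and 16 lowest, where 64.5% of all genes were at either end there. Among the 15 were Sqstm1, Atg13, Rb1cc1, Atg12 and Tfe3, and among the 16 Gabarapl2, Map1lc3b, Rtn3, Calcoco1 and Ulk1. The lens sum in library 1 was 9903 FPKM. Its Müller glia sum was 460 FPKM, against 868 to 1205 in the other tunicamycin libraries. Its rod sum was 13651, against 16112 to 16995, and its cone sum 456, against 611 to 699. The part of lens RNA or of these other markers in its values was not tested. Without library 1, 0 members were called in either tunicamycin comparison, where 300 of 12924 genes were against vehicle set 2 and 417 against Ceapin-A7. Library 3, with the lowest Hspa5 and a lens sum of 2.07 FPKM, was at either end for 19 of 39, against 53.1% of all genes. Without library 3, limma called Sqstm1, Atg13 and Atg12 as higher and Calcoco1 as lower than vehicle set 2, 4 of 39 members. Over all genes, 1017 of 12916 were called in that fit, 665 higher and 352 lower.

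**Figure D3:**
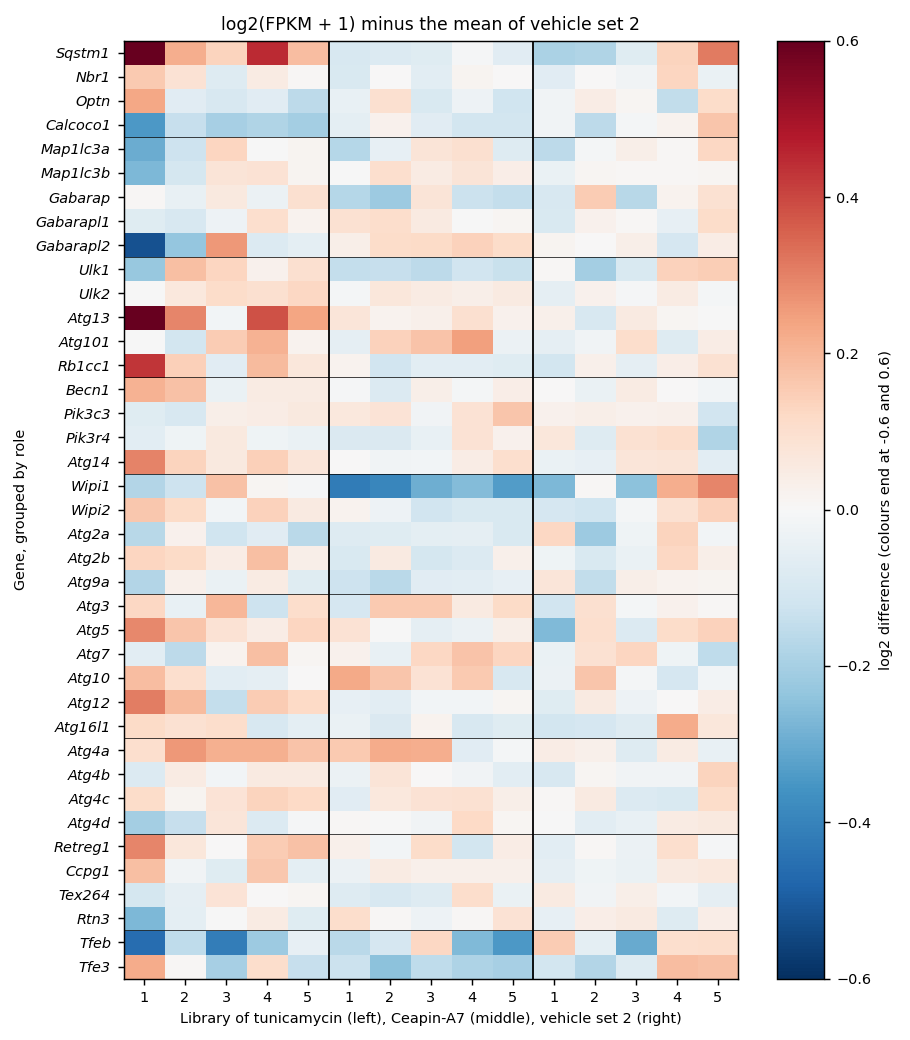
Log2(FPKM + 1) of the 39 autophagy genes in each library minus the mean of vehicle set 2, in columns for tunicamycin, Ceapin-A7 and vehicle set 2, with black lines between groups and roles. Tunicamycin library 1 is the strongest column in both directions, and vehicle libraries 4 and 5 share the higher Sqstm1, Wipi1 and Tfe3 levels.

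Genes around the machinery were counted in lists chosen beside the members, likewise with earlier results of these data known. In the list of 12 other ER-phagy and UFMylation genes, 2 rose with tunicamycin against vehicle set 2, 0 fell and 10 did not pass, where 3.00% of all genes were called and 2.12% were higher. The median difference was 0.089, against 0.013 for all genes. UFMylation joins the ubiquitin-like UFM1 to ribosomes at the ER and is needed for ER-phagy in human cells. Ufl1, its ligase, was at 21.3, 15.5, 16.1, 16.5 and 17.5 FPKM in tunicamycin libraries, 14.7, 14.2, 13.1, 14.9 and 14.6 in Ceapin-A7 libraries, and 12.9, 15.4, 13.6, 13.9 and 13.1 in vehicle set 2. Ufsp2, a protease that removes UFM1, was at 40.04, 32.9, 38.4, 34.95 and 34.2 FPKM in tunicamycin libraries, 28.2, 31.3, 29.8, 30.01 and 32.6 in Ceapin-A7 libraries, and 29.9, 32.3, 32.1, 28.5 and 30.6 in vehicle set 2. For both genes every tunicamycin library was above all Ceapin-A7 and vehicle libraries. Of all genes, 6.77% were separated in this direction from Ceapin-A7 and 2.81% from vehicle set 2. Ufl1 rose by 0.31 ± 0.073 and Ufsp2 by 0.22 ± 0.057 from vehicle (limma adjusted p = 0.0334 and 0.0449), and by 0.26 ± 0.073 and 0.24 ± 0.057 from Ceapin-A7 (adjusted p = 0.0489 and 0.0279). Against vehicle, the call of Ufl1 held in 4 of 10 fits that left out a library (those without tunicamycin library 1, 2 or 3 or vehicle library 2) and that of Ufsp2 in 2 of 10 (without tunicamycin library 2 or vehicle library 2). Without vehicle libraries 4 and 5 together, Ufl1 was at 0.29 (adjusted p = 0.0955) and Ufsp2 at 0.19 (adjusted p = 0.133). Against Ceapin-A7, calls held in 1 of 10 such fits for Ufl1 (without tunicamycin library 3) and 4 of 10 for Ufsp2 (without tunicamycin library 2, 3 or 5 or Ceapin-A7 library 5). Ufm1, Ufc1, Ddrgk1 and Cdk5rap3 differed by 0.15 to 0.39 and did not pass, and Retreg2, Retreg3, Sec62 and the atlastins Atl1, Atl2 and Atl3 by -0.086 to 0.030.

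The other lists held few calls. In tunicamycin against vehicle set 2, 0 of 12 mitophagy and other receptors, 0 of 19 fusion genes, 0 of 22 mTORC1 and AMPK regulators and 0 of 30 lysosomal genes passed, where 3.00% of all genes did. Against Ceapin-A7, 2 of 12 UFMylation and ER-phagy genes and 2 of 22 mTORC1 and AMPK regulators were higher, where 5.43% of all genes were called and 3.83% were higher, and the other lists again had 0. The regulators were Sesn2, a stress-induced mTORC1 inhibitor, and Prkab2, an AMPK subunit. Sesn2 was at 84.3, 34.7, 10.2, 41.1 and 23.7 FPKM with tunicamycin and 8.42 to 10.5 with Ceapin-A7, a difference of 1.65 ± 0.37 (limma adjusted p = 0.0236), and against vehicle 1.35 ± 0.37 (adjusted p = 0.0611). Prkab2 was at 14.3 to 15.4 FPKM with tunicamycin and 11.0 to 12.2 with Ceapin-A7, a difference of 0.35 ± 0.070 (adjusted p = 0.0139). Prkab2 kept its call in 10 of 10 fits that left out a library and Sesn2 in 4, those without tunicamycin library 1, 3 or 5 or Ceapin-A7 library 4. Ceapin-A7 and AA147 against their vehicle sets had 0 calls in all 5 lists.

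The vehicle sets differed from each other in these genes. Libraries of vehicle set 2 and vehicle set 1 did not overlap for 14 of 39 members, 6 higher and 8 lower in set 2, where 33.4% of 13117 genes did not overlap (19.1% higher and 14.4% lower). Rb1cc1 averaged 13.6 FPKM in vehicle set 2 and 9.97 in set 1, Rtn3 267 and 214, and Atg12 33.1 and 26.2. Optn went the other way, at 59.5 in set 2 and 81.2 in set 1, as did Atg4a at 4.08 and 5.83, Atg2a at 10.9 and 14.6 and Calcoco1 at 32.4 and 42.5. The gaps over all members ran from -0.44 to 0.41 log2, and for each gene named here the gap was larger than its difference in any compound comparison. The tables of the 2 sets list different genes, and processing, batch and vehicle set cannot be told apart, so no level of AA147 was compared with tunicamycin or Ceapin-A7.

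**Figure D4:**
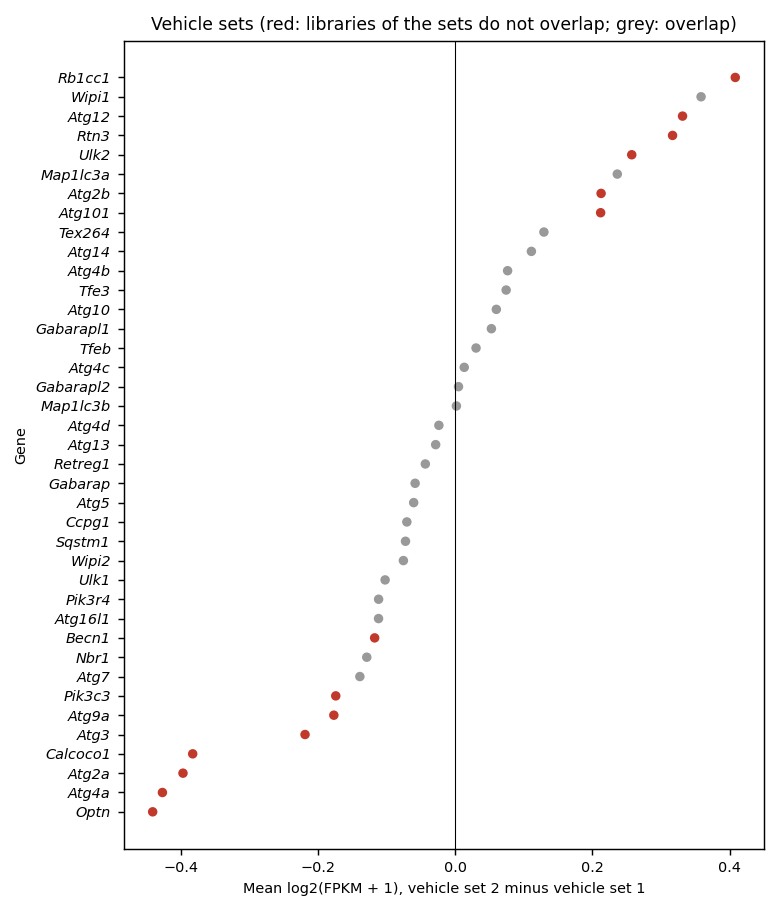
Difference in mean log2(FPKM + 1) between vehicle set 2 and vehicle set 1 (set 2 minus set 1) for the 39 autophagy genes, red where the 5 libraries of each set do not overlap. Optn lies lowest at -0.44 and Rb1cc1 highest at 0.41.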

How the data were processed

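Retinal RNA of 25 libraries, 5 in each of 5 groups, had been sequenced as stranded mRNA libraries, per the labels' protocols. The deposited values are FPKM computed by the authors, with a table for each group. Genome build GRCm39, RSEM 1.2.18, HISAT2 2.0.4 and DESeq2 1.4.5 are listed, without role or order, per the submitters' processing notes. All columns mapped to a sample (0 left out). FPKM are not counts, and depth was estimated from steps between low values; whole reads were not recovered (mean distance to a whole number 0.120 to 0.159). Tables with 19102 genes (tunicamycin, Ceapin-A7 and vehicle set 2) and 18676 genes (AA147 and vehicle set 1) were fitted separately with limma 3.58.1 in R 4.3.3, on log2(FPKM + 1), with an intensity trend, for genes at 1 FPKM or more in at least 5 libraries. Benjamini-Hochberg adjustment ran over all genes tested, with 0.05 as threshold, after a check on simulated data. Python 3.11.15 made the summaries. The members and lists were chosen with earlier results of these data known. Genes named with all values are called members and the 2 highest-expressed members of each role, with up to 4 called genes of each other list; Atg4a and Wipi1 were chosen after their values were seen. Alternatives covered pseudocount, filter, scaling, model, replicate block and each library left out. Fits without vehicle libraries 4 and 5 and with Ddx3y were likewise chosen with earlier results known. 1 further gene of a neighbouring list is not reported here and is not counted in that list.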

Additional observations from a re-analysis of the deposited data

Results flagged for a closer look

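In 15 of 150 groups of 5 libraries examined, 1 library stood far from the other 4 relative to the group's range, where chance flags about 1 in 20. In tunicamycin library 1, Hspa5 was at 1513 FPKM (229 to 581 in the other 4), Ddit3 at 343 (63.9 to 138) and Trib3 at 74.7 (10.4 to 26.2). Among Ceapin-A7 libraries, library 4 was high for Sqstm1 at 156.56 FPKM (147 to 149.7) and Atg4d at 26.3 (23.8 to 24.4). Library 1 was low for Gabarapl2 at 203.6 (215 to 219) and Ccpg1 at 49.4 (51.7 to 52.4), and library 3 for Ddit3 at 39.3 (43.2 to 44.5). In vehicle set 2, Pik3c3 was low in library 5 at 12.5 FPKM (13.85 to 13.95) and Atg9a in library 2 at 27.5 (30.8 to 32.2), and Derl3 was high in library 5 at 1.48 (0.74 to 0.92). In vehicle set 1, library 4 was low for Nbr1 at 65.0 FPKM (70.6 to 72.8) and high for Becn1 at 57.0 (52.5 to 53.5), library 1 was high for Atg4a at 6.16 (5.66 to 5.80), and library 2 for Ufl1 at 14.9 (13.3 to 13.5).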

How the results depend on the processing

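The number of members called with tunicamycin against vehicle set 2 was 1 in the report. It was 0 with no filter, a filter of 5 FPKM, the compared groups only or no intensity trend. A variance differing by group or the Ddx3y covariate also gave 0. In 1 model of all 5 groups it was 4, where 1141 of 13117 genes were called. Against Ceapin-A7, 1 in the report, it was 0 with no filter, quantile normalization or the Ddx3y covariate. With the compared groups only it was 2, where 595 of 12786 genes were called. A variance differing by group gave 3, where 1072 of 12947 genes were called. In 1 model of all groups it was 5, where 1746 of 13117 genes were called. Leaving out each library gave 0 to 4 against vehicle and 0 to 6 against Ceapin-A7. The highest came without tunicamycin library 3, where 1017 and 1793 of 12916 genes were called. For Ceapin-A7 and AA147 against vehicle, leaving out a library gave 0 throughout. The vehicle set of the other tables gave 23 of 39 called members for tunicamycin, 24 for Ceapin-A7 and 17 for AA147. In these fits 7381, 6676 and 6016 of 13117 genes were called. With that vehicle set these differences changed sign: for tunicamycin Wipi1 0.34, Atg4a -0.24 and Rtn3 0.24, and for Ceapin-A7 Pik3c3 -0.099, Atg12 0.30 and Atg4a -0.32. For AA147, Atg4a at 0.42 and Rtn3 at -0.30 did so. The cause was not tested. Counting differences that were called in neither fit, 36 of 718 values of named genes changed sign for tunicamycin against vehicle, 4 of 658 against Ceapin-A7, 33 of 717 for Ceapin-A7 and 33 of 635 for AA147.

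Over all genes, the 389 calls of tunicamycin against vehicle became 1141 in 1 model of 5 groups, 74 with the compared groups only, 191 with a variance differing by group, 63 with Ddx3y, 7381 with the other vehicle set and 157 to 1017 with a library left out. The 703 against Ceapin-A7 became 1746, 1072 with a variance differing by group, 195 with Ddx3y and 209 to 1793 with a library left out. The other vehicle set gave 6676 calls for Ceapin-A7 and 6016 for AA147, against 0. With the replicate number as a block, 0 members were called in each comparison, and all-gene calls were 187 for tunicamycin against vehicle and 439 against Ceapin-A7. Libraries with the same number did not deviate together throughout, with r from -0.44 to 0.48 over the pairs of groups. At most 1 of 5 correlated best with its own number, so the numbers were not treated as pairs. Those numbered 1 did correlate positively in each pair. Their r was 0.44 for tunicamycin and Ceapin-A7, 0.31 for tunicamycin and vehicle set 2, and 0.48 for Ceapin-A7 and vehicle set 2. For AA147 and vehicle set 1 it was 0.14. With 5 libraries a group and no counts, small differences of single genes stay within the intervals given.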
